A study of Mus musculus with 32 samples.

Results

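BC57, a mouse bladder cancer cell line, was measured after formalin fixation and paraffin embedding (FFPE) and after fresh freezing (FF), to ask which transcripts a low-input array reports higher or lower in fixed cells. The 6 arrays described here, of 32 in the series, were chosen by their labels: 3 of FFPE BC57 RNA and 3 of FF BC57 RNA. All 6 were made with the GeneChip WT Pico kit, a whole-transcript amplification kit, from 2 ng of total RNA. Per the labels, a single harvested pellet of cells grown in DMEM with serum was divided into an FFPE and an FF part, and no treatment or genetic change of the cells is given. The FFPE part was kept in buffered formalin and was extracted from wax sections with a kit for FFPE tissue, and the FF part was frozen in liquid nitrogen and extracted with a different kit, so fixation and extraction cannot be told apart. Arrays of BC57 at 0.5 ng (WT Pico, 3 FFPE and 3 FF), of BC57 at FFPE 50 ng (SensationPlus, n = 2) and FF 100 ng (WT Plus, n = 2), and of normal mouse urothelium at 2 ng (WT Pico, 3 FFPE and 3 FF), the bladder lining taken from several mice, served for comparison. The series' design describes the arrays of a group as repeats of a sample. No label names separate cultures or fixations, so every p-value measures the spread among repeat arrays, which may be technical.

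Formalin joins RNA to protein and adds groups to its bases, and RNA recovered from paraffin blocks is broken into short pieces, which hinders copying into cDNA. Kits for such RNA prime along the whole transcript and amplify strongly, and an array probe then reads any fragment that covers it. An array has no natural zero: values are made comparable by the normalization, so a transcript is called higher or lower relative to the bulk of all transcripts. In bulk RNA, fewer cells with a transcript and less of it per cell cannot be told apart.

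The values were the authors' log2 expression values, made with RMA (background correction, normalization and summary of the probes of a probe set), for 21237 probe sets named by Ensembl mouse gene identifiers. The sources used here pair 0 of these identifiers with a gene symbol. For that reason only the 2 largest rises and the 2 largest falls are given by identifier, no gene role or sequence is given, and the bladder cancer label could not be checked against marker genes. Precision is limited by how many arrays each group has.

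FFPE arrays had a higher centre and a narrower range. The medians of the FFPE arrays were 5.67, 5.63 and 5.62, against 5.41, 5.35 and 5.31 in FF arrays. The standard deviation over probe sets was 1.59, 1.60 and 1.64 in FFPE arrays, against 1.92, 1.97 and 2.00 in FF arrays. Both ends moved inwards: the 5th percentile averaged 2.88 ± 0.07 in FFPE and 2.44 ± 0.04 in FF arrays, and the 95th percentile 8.11 ± 0.02 in FFPE and 8.75 ± 0.06 in FF arrays (SD, n = 3 each). The groups overlapped in none of these 4 measures. An exact 2-sided permutation test gave p = 0.1 for each, the smallest that 3 against 3 arrays allow.

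**Figure D1:**
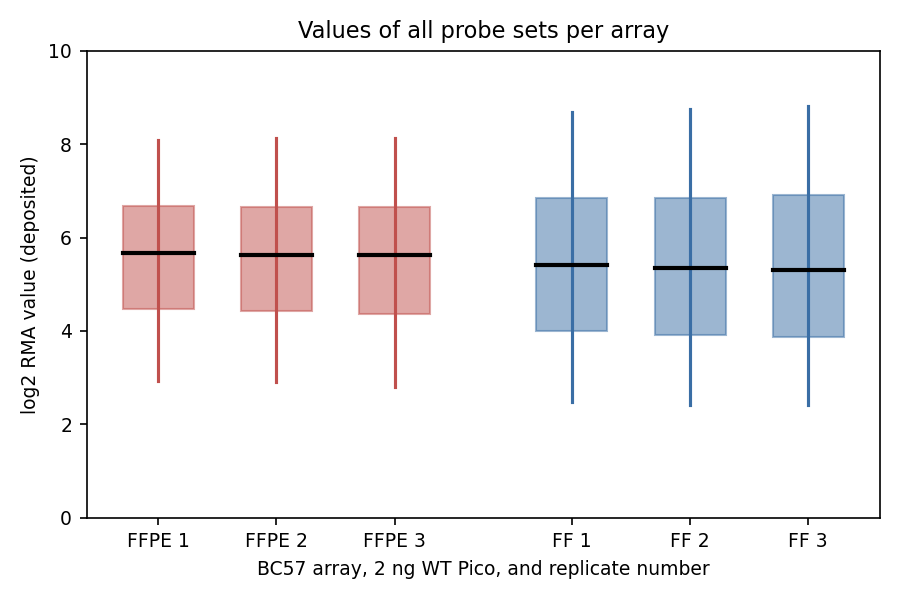
Deposited log2 RMA values (y axis) over all probe sets for each BC57 array at 2 ng (x axis), with lines from the 5th to the 95th percentile, boxes from the 25th to the 75th and bars at the median. The 3 FFPE arrays, on the left, have medians of 5.62 to 5.67 and shorter lines than the 3 FF arrays, with medians of 5.31 to 5.41.

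Replicates were close in both groups, and closer in FF RNA. Correlations over probe sets ran from 0.986 to 0.987 between FFPE arrays, from 0.994 to 0.997 between FF arrays, and from 0.948 to 0.959 between an FFPE and an FF array. The root mean square of the standard deviation between replicates was 0.19 in FFPE and 0.14 in FF arrays. The spread in FFPE was widest among dim probe sets. In the dimmest quintile it was 0.24 in FFPE and 0.14 in FF arrays, and in the brightest 0.17 in FFPE and 0.13 in FF arrays. Quintiles of brightness were set here and below by the mean level in BC57 FF 100 ng arrays, which take no part in the 2 ng contrast.

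The median probe set was 0.28 higher in FFPE on the deposited log2 values, and 66.2% of all probe sets had a positive change. To find transcripts beyond this shift, each array was centred on its own median. Changes were tested with limma on the 12 arrays at 2 ng of both cell types, which share an estimate of the spread. A probe set was called at a Benjamini-Hochberg adjusted p under 0.05 over all 21237 together with a log2 change of 1 or more in size, a fold of 2. Beyond the shift, 2456 probe sets were called, 11.6% of those tested, with 249 higher (1.17%) and 2207 lower (10.4%) in FFPE. Without regard to p, 88.4% of all probe sets stayed within 2-fold.

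On centred values, most falls were of bright transcripts. The median centred change was 0.19 in the dimmest quintile, 0.21, 0.06 and -0.38 in the next, and -0.87 in the brightest. The brightest quintile held 1745 of the 2207 falls and 40 of the 249 rises. In that quintile 42.0% of probe sets were called, against 1.55% in the dimmest. The quartiles of centred change in the brightest quintile were -1.26 and -0.52. This downward move depended on the scaling: after quantile normalization the median of the brightest quintile was -0.13, with quartiles of -0.50 and 0.22, and 10.5% of it was called, 129 higher and 319 lower. After cyclic loess the median was -0.22, with quartiles of -0.62 and 0.17.

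The number and direction of the calls changed with how the shift was removed. With no centring, 1754 probe sets were called (8.26%), 578 higher (2.72%) and 1176 lower (5.54%), which makes 33.0% of them higher in FFPE against 10.1% after centring. Quantile normalization, which gives all 12 arrays the same distribution, called 893 (4.2%), 393 higher (1.85%) and 500 lower (2.35%), or 44.0% higher. Cyclic loess, which removes a shift that varies with brightness, called 1164 (5.48%), 413 higher (1.94%) and 751 lower (3.54%), or 35.5% higher. Of the 249 centred rises, 249 were also called on deposited values, 201 after quantile normalization and 192 after cyclic loess. Of the 2207 centred falls, these numbers were 1176, 479 and 702. No probe set called on centred values was called in the opposite direction under any of the other 3 scalings. Deposited changes equal centred changes plus a constant upward shift that is smaller than the size needed for a call. On deposited values an opposite call was therefore not possible, and every centred rise stayed over the size threshold.

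A set of 634 probe sets, 2.99% of all, had the same call on centred, deposited and quantile-normalized values. It held 201 rises (0.946%) and 433 falls (2.04%), and 191 and 414 of them were also called after cyclic loess. The rises had a median centred change of 1.39, with 176 between 2-fold and 4-fold, 22 between 4-fold and 8-fold and 3 larger. The falls were deeper, at a median of -1.94, with 243, 173 and 17 in those classes. The selection bears on this difference. A fall had to exceed the upward shift of the deposited values to be included and a rise did not. Quantile normalization removed more falls than this shift did. Of the 2207 centred falls, 1176 kept their call on deposited values and 479 after quantile normalization, against 249 and 201 of the 249 rises.

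These rises and falls differed in where they came from in brightness. The rises lay across the range, with 35, 48, 51, 27 and 40 from the dimmest to the brightest quintile. The falls numbered 1, 7, 29, 79 and 317 in the same order. The median level of the rises was 7.01 in FFPE and 5.18 in FF arrays, and that of the falls was 6.37 in FFPE and 8.02 in FF arrays. Levels of different probe sets are not comparable with each other, and the sets were chosen on these arrays, so these medians only describe the sets.

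**Figure D2:**
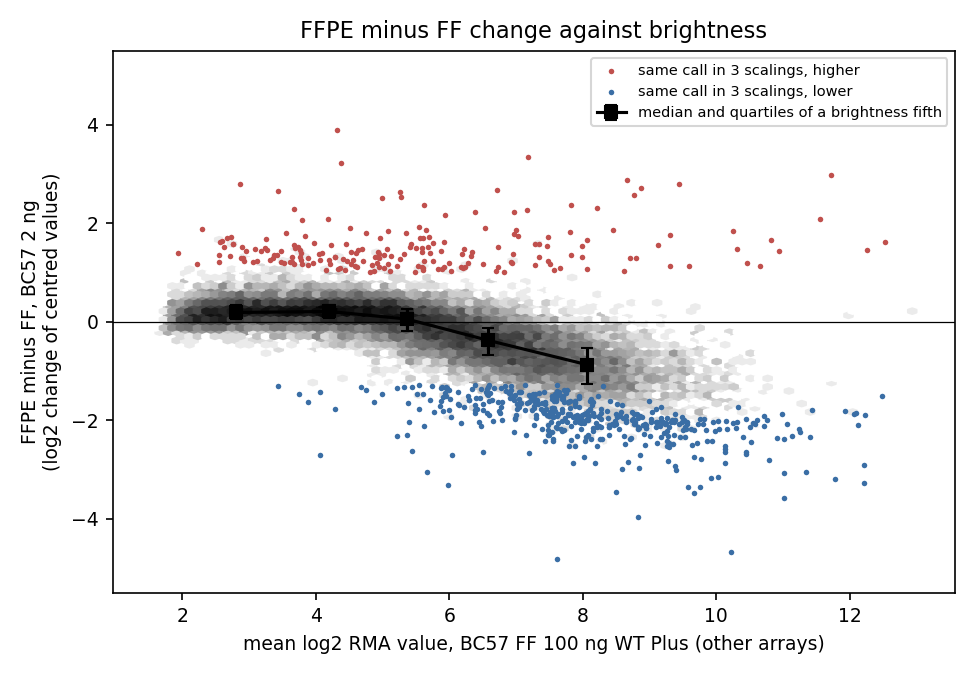
Log2 change of centred values, FFPE minus FF in BC57 at 2 ng (y axis), against the mean level in BC57 FF 100 ng arrays (x axis, log2 RMA), for all probe sets (grey density). Coloured points are the 201 rises and 433 falls with the same call in 3 scalings, and squares with bars are the median and quartiles of each brightness quintile, which go down to -0.87 in the brightest.

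The largest rise was ENSMUSG00000031802. Its deposited log2 values were 9.34, 9.01 and 9.45 in FFPE arrays, against 5.17, 5.58 and 4.55 in FF arrays. All FFPE arrays were far above all FF arrays. The centred change was 3.88 ± 0.21 (SE), a 14.8-fold rise (limma adjusted p = 4.1e-08). The FF level was near the middle of the FF arrays, where 45.3% of probe sets were as dim or dimmer.

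This rise was found at each input and kit. BC57 FFPE arrays at 0.5 ng had values of 9.06, 9.27 and 8.68, against 4.38, 5.76 and 4.11 in FF arrays. At 50 ng with SensationPlus, FFPE arrays had 7.70 and 8.12, against 4.27 and 4.36 in FF arrays at 100 ng with WT Plus. Urothelium at 2 ng had 9.64, 9.94 and 9.50 in FFPE and 7.03, 7.26 and 7.19 in FF arrays, and the cell types lay further apart in FF than in FFPE arrays. The change in urothelium was 2.14 ± 0.21 (SE, limma adjusted p = 1.8e-06).

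ENSMUSG00000064343 rose at 2 ng and with the other kits, at levels that differed by kit. Its values were 9.28, 9.53 and 9.87 in FFPE arrays at 2 ng, against 5.66, 6.09 and 6.01 in FF arrays. The centred change was 3.35 ± 0.19 (SE), a 10.2-fold rise (limma adjusted p = 5.5e-08). With the other kits it was 12.44 and 12.53 in FFPE 50 ng arrays, against 7.13 and 7.24 in FF 100 ng arrays, a change of 5.23 ± 0.08 (SE, limma adjusted p = 2.3e-07). The groups did not overlap in either comparison, and both WT Pico groups lay below the group of the same preservation made with another kit. In urothelium at 2 ng it had 7.67, 8.28 and 7.95 in FFPE arrays, against 5.32, 5.08 and 5.09 in FF arrays.

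The largest fall was ENSMUSG00000022193. It had values of 6.30, 4.85 and 6.36 in FFPE arrays, against 10.10, 10.48 and 10.51 in FF arrays, where 99.3% of probe sets were as dim or dimmer. FFPE replicate 2 was the lowest array, and the highest FFPE value was still far below every FF value. The centred change was -4.82 ± 0.40 (SE), a 28.2-fold fall (limma adjusted p = 9.1e-07).

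With the other kits the FF level of ENSMUSG00000022193 was lower. FFPE arrays at 50 ng with SensationPlus had 7.56 and 6.94, against 7.86 and 7.36 in FF arrays at 100 ng with WT Plus, and these groups overlapped. The change there was -0.44 ± 0.21 (SE), which was not called (limma adjusted p = 0.15). In urothelium with these kits the values were 5.60 and 5.62 in FFPE arrays, against 7.03 and 6.91 in FF arrays, so there the FFPE arrays lay below the FF arrays, a difference that was not tested. In BC57, FF arrays at 0.5 ng with WT Pico were higher than those at 100 ng with WT Plus by 2.68 ± 0.19 (SE, limma adjusted p = 0.00030), on centred values.

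ENSMUSG00000003429 also fell in BC57 with WT Pico and was not called in BC57 with the other kits. At 2 ng it had 7.01, 6.06 and 6.48 in FFPE arrays, against 10.64, 10.99 and 11.04 in FF arrays, a centred change of -4.66 ± 0.27 (SE) or a 25.3-fold fall (limma adjusted p = 5.7e-08). At 0.5 ng it had 7.96, 6.28 and 7.50 in FFPE arrays, against 10.68, 10.66 and 10.74 in FF arrays. FFPE arrays at 50 ng had 10.19 and 10.51, against 10.24 and 10.20 in FF arrays at 100 ng, groups that overlapped, with a change of 0.06 ± 0.13 (SE, limma adjusted p = 0.77). In urothelium at 2 ng the values were 4.51, 4.52 and 5.56 in FFPE arrays, against 10.07, 10.05 and 10.00 in FF arrays. With the other kits urothelium had 9.68 and 9.75 in FFPE arrays at 50 ng, against 10.28 and 10.54 in FF arrays at 100 ng, groups that did not overlap and were not tested.

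**Figure D3:**
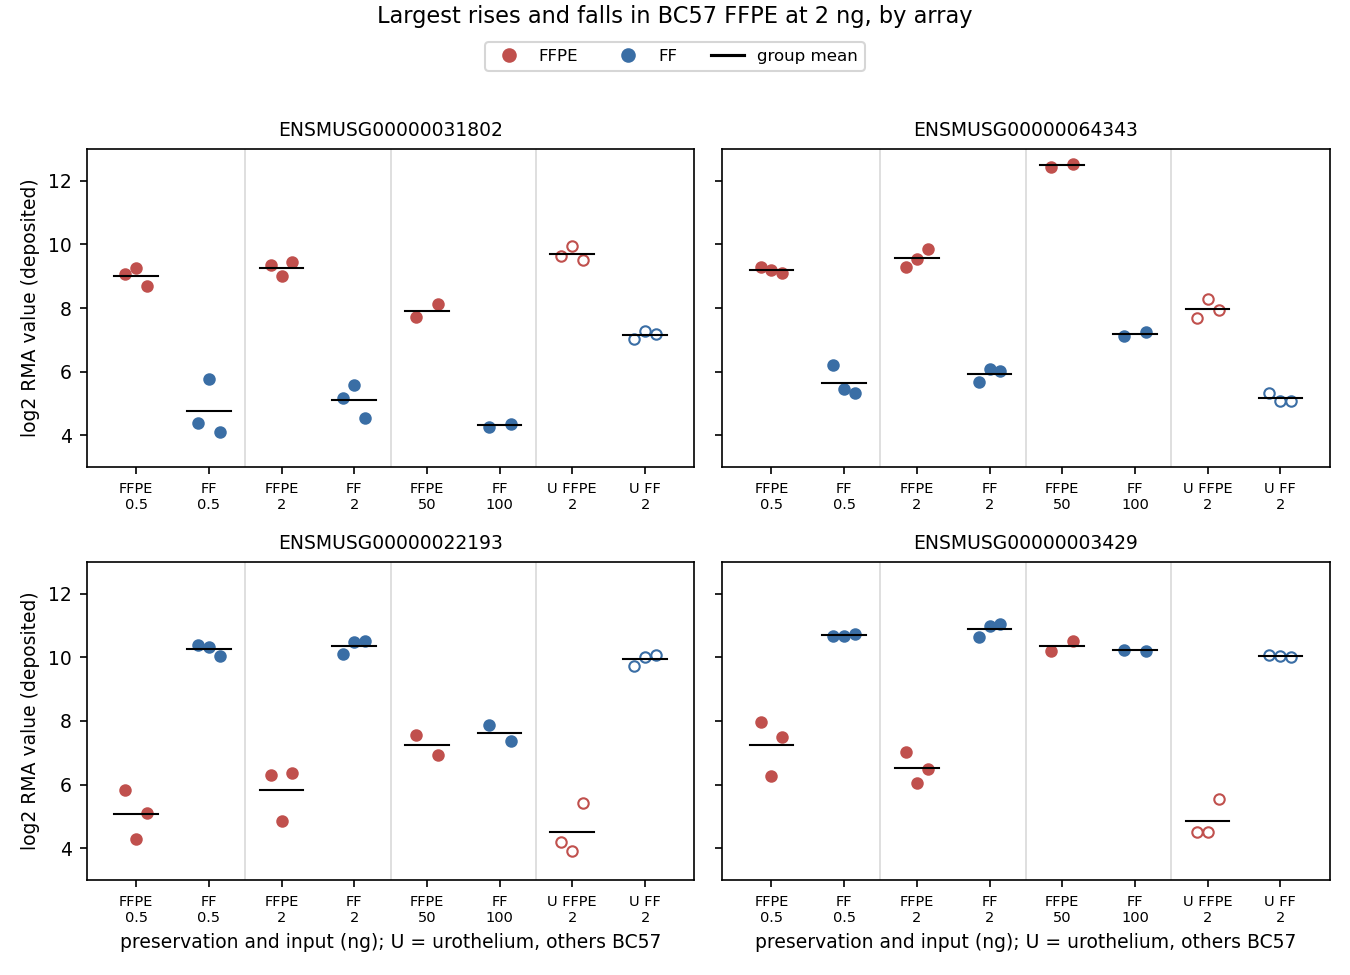
Deposited log2 RMA values (y axis) of the 2 largest rises (top) and 2 largest falls (bottom) by array, with FFPE in red, FF in blue, group means as bars and groups on the x axis by preservation and input (BC57 filled, urothelium at 2 ng open). The FFPE and FF groups are apart at 0.5 ng and 2 ng in all 4, whereas the 2 falls have BC57 FFPE 50 ng values (6.94 to 10.51) close to their FF 100 ng values (7.36 to 10.24).

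At 0.5 ng, other arrays of the same RNA sources gave much the same changes. FFPE minus FF in BC57 at 0.5 ng called 3779 probe sets on centred values (17.8%), 376 higher (1.77%) and 3403 lower (16%). Higher calls were 9.95% of these, against 45.1% of 3236 calls (15.2%) on deposited and 43.9% of 1383 (6.51%) on quantile-normalized values. Of the 2456 calls at 2 ng, 2285 (93.0%) were called in the same direction at 0.5 ng, which is 60.5% of the 0.5 ng calls, and 0 in the opposite direction. Of the 249 rises, 186 (74.7%) were called again, and of the 2207 falls, 2099 (95.1%). On centred values, in the brightest quintile 96.8% of the 1745 falls at 2 ng were called lower at 0.5 ng, and so were 33.9% of the 2463 not called at 2 ng. Changes at the 2 inputs correlated over probe sets at r = 0.939, as a description with no p-value. After quantile normalization 78.3% of the 2 ng calls were called again, with r = 0.879. This repeats the amplification and the array, and not the fixation.

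On centred values, median changes were larger at the lower input. Over the set of 634, the median ratio of the 0.5 ng change to the 2 ng change was 1.08 on centred values. It was 1.06 on deposited values, 1.04 after quantile normalization and 1.02 after cyclic loess, so the excess depended on the scaling. The centred median of the 433 falls was -2.15 at 0.5 ng and -1.94 at 2 ng. In the brightest quintile as a whole it was -1.16 at 0.5 ng and -0.87 at 2 ng. The difference between inputs was not tested.

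**Figure D4:**
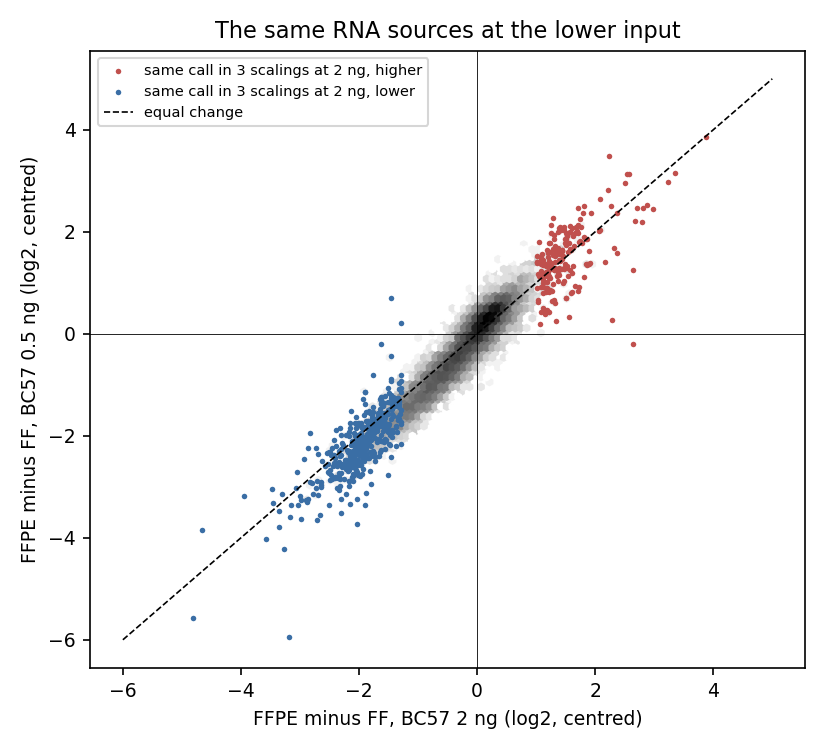
Log2 change of centred values, FFPE minus FF in BC57, at 0.5 ng (y axis) against 2 ng (x axis), for all probe sets (grey density), with the 201 rises and 433 falls at 2 ng coloured and a dashed line at equal change. The falls lie mostly below the line, at a median of -2.15 at 0.5 ng against -1.94 at 2 ng.

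With other kits and more RNA, the median changes were smaller. FFPE 50 ng (SensationPlus) minus FF 100 ng (WT Plus) in BC57 called 1050 probe sets on centred values (4.94%), 383 higher and 667 lower, and fixation, kit and input changed together there. Higher calls were 36.5%, against 47.6% of 1000 calls (4.71%) on deposited and 50.3% of 821 (3.87%) on quantile-normalized values. Of the 433 falls, 121 (27.9%) were called lower, against 3.14% of all probe sets and 11.1% of the brightest quintile, and 4 were called higher. That quintile was set on the same FF 100 ng arrays that enter this comparison, which can raise its share called lower. Of the 201 rises, 65 (32.3%) were called higher, against 1.8% of all, and 13 (6.47%) were called lower, against 3.14% of all. The median change of the falls was -0.64 with these kits and that of the rises 0.31. Quartiles of the rises ran from -0.20 to 1.29, a wide range among members.

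The kits were also compared on FF RNA alone. FF 0.5 ng (WT Pico) minus FF 100 ng (WT Plus) in BC57, on arrays that take no part in the 2 ng contrast, called 777 probe sets on centred values (3.66%). Among the 201 rises 24 (11.9%) were called lower with WT Pico, against 2.09% of all probe sets, and 2 higher. Among the 433 falls 53 (12.2%) were called higher with WT Pico, against 1.57% of all, and 29 (6.7%) lower. The share called among the falls was above that of all probe sets in both directions, since 2.09% of all were called lower. Of these 433 falls, 317 were in the brightest quintile, and the share of that quintile called here was not computed. Among all 2207 centred falls, most of them bright, 7.43% were called higher with WT Pico and 5.17% lower. Whether these shares go with brightness was not tested. The median kit difference was 0.06 in the 201 rises, 0.12 in the 433 falls and 0.05 in all probe sets. Input changed along with the kit in this comparison.

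**Figure D5:**
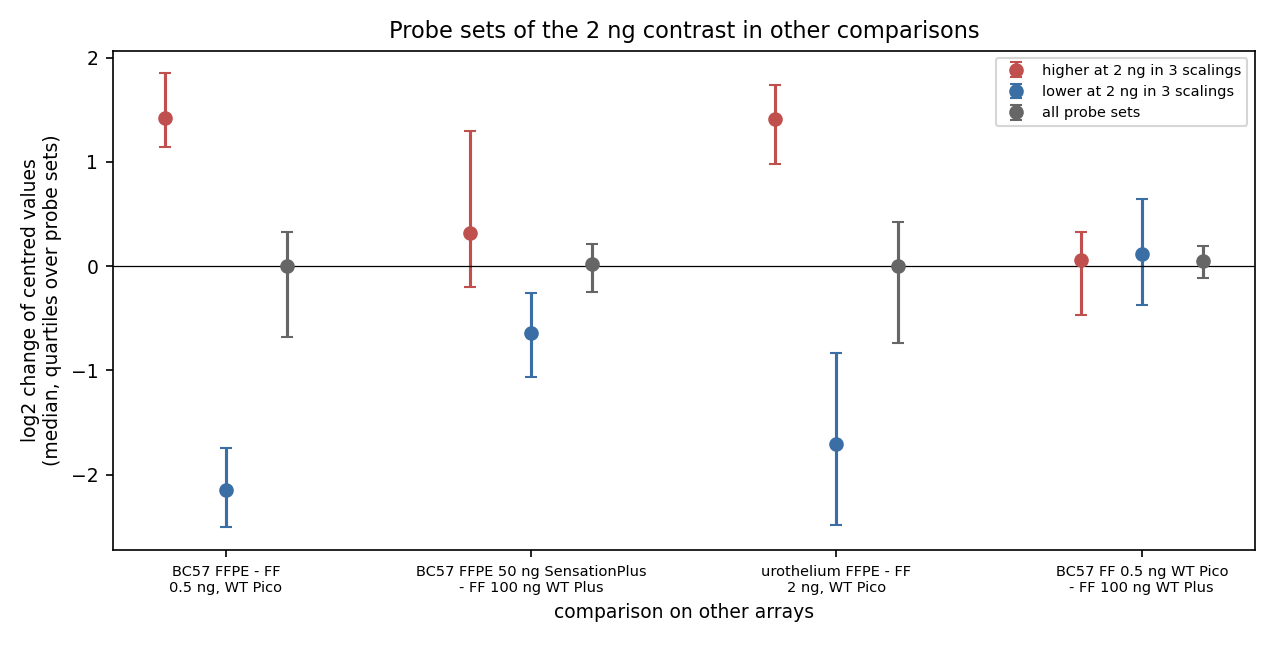
Median log2 change of centred values with quartiles over probe sets (y axis) in 4 comparisons on other arrays (x axis), for the 201 rises and 433 falls of BC57 at 2 ng and for all probe sets. The sets keep a median of 1.42 and -2.15 at 0.5 ng and of 1.41 and -1.71 in urothelium, and lie nearer to 0 where the kits differ.

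In urothelium, FFPE minus FF at 2 ng called 4321 probe sets on centred values (20.3%), 490 higher and 3831 lower. Higher calls were 11.3%, against 54.8% of 4814 calls (22.7%) on deposited and 42.5% of 2324 (10.9%) on quantile-normalized values. Of the 2456 calls in BC57, 1741 (70.9%) were called in the same direction in urothelium, which is 40.3% of the urothelium calls, and 2 in the opposite direction. Of the 201 rises 150 (74.6%) were called higher in urothelium, against 2.31% of all probe sets, and 0 lower. Of the 433 falls 302 (69.7%) were called lower, against 18% of all, and 1 higher. Most of the falls were bright, and of the whole brightest quintile 52.8% were called lower in urothelium, as were 37.4% of its members not called in BC57. Altogether 135 of the 201 rises and 300 of the 433 falls had the same call in BC57 at 2 ng, in BC57 at 0.5 ng and in urothelium at 2 ng. Of these, 43 and 88 also had it at FFPE 50 ng against FF 100 ng. Shares of all probe sets, or of the brightest quintile, with these joint calls were not computed, so the counts only describe the sets. Of the whole brightest quintile, 59.4% were called lower in BC57 at 0.5 ng.

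The FFPE minus FF change itself differed between BC57 and urothelium at 1530 probe sets (limma interaction, 7.2%), with 1123 more positive (5.29%) and 407 more negative (1.92%) in BC57. The share more positive was 73.4% on centred values, 62.0% of 1477 calls (6.95%) on deposited values and 63.1% of 738 (3.48%) on quantile-normalized values. The change was smaller in size in BC57 at 1164 of the 1530. At 839 the probe set was called lower in urothelium and was not called in BC57, and at 229 the reverse held. After quantile normalization these numbers were 586 of the 738, 338 and 61. Whole arrays also narrowed more with FFPE in urothelium, which centring does not remove. The SD over probe sets averaged 1.45 in FFPE and 1.96 in FF arrays of urothelium, against 1.61 and 1.96 in BC57. Of the 4 named probe sets, ENSMUSG00000031802 alone was called, with a change larger in BC57 by 1.74 ± 0.30 (SE, limma adjusted p = 0.00086) on centred values. After quantile normalization the difference was 0.81 ± 0.25 (SE, limma adjusted p = 0.038), under the size needed for a call. This probe set was chosen as the largest rise on the same BC57 arrays, which favours a larger change there. On the 0.5 ng arrays its change was 3.87 in BC57 and 2.14 in urothelium on centred values. After quantile normalization it was 4.32 and 3.27, and the difference at 0.5 ng was not tested.

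Changes in BC57 were also set against how the cell types differed in FF RNA, on arrays outside the 2 ng contrast. At FF 100 ng, 3315 probe sets were called between the cell types (15.6%), of which 1864 were higher in BC57 than in urothelium (8.78%) and 1451 lower (6.83%). Those higher in BC57 had a median centred change with FFPE of -0.96 in BC57 and -0.40 in urothelium. Those lower in BC57 had 0.06 in BC57 and -1.17 in urothelium. In each cell type the larger median fall was among probe sets brighter in that cell type. In the interaction, 792 of the 1451 were called more positive in BC57 and 1 more negative, while 346 of the 1864 were called more negative and 23 more positive. After quantile normalization these numbers were 290 and 1 of the 1451, and 129 and 47 of the 1864. The medians there were -0.38 in BC57 and -0.17 in urothelium for probe sets higher in BC57, and 0.04 in BC57 and -0.54 in urothelium for those lower in BC57.

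The same classes were compared at like brightness in BC57. In the brightest quintile, 62.1% of the 1202 probe sets higher in BC57 were called lower in FFPE. This share was 33.3% for the 2913 not called between the cell types and 21.1% for the 133 lower in BC57. Probe sets not called may still differ between the cell types by less than 2-fold. The median levels of these classes were 8.38, 7.97 and 7.80, in the same order, so brightness differed between them too. In the next quintile the median levels were 6.71, 6.58 and 6.44, and 25.2%, 7.06% and 5.38% were called lower. After quantile normalization the shares in the brightest quintile were 14.4%, 4.74% and 6.02%. These shares were not tested, and finer differences of brightness within a quintile were not adjusted for.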

How the data were processed

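The deposited table holds log2 values. The authors made them with RMA and affy, as the submitters' processing notes name these tools; the sources used here give no versions, array design or annotation build, and do not state whether all arrays were normalized in a single run. Groups and replicate numbers came from sample titles. Testing used limma 3.58.1 in R 4.3.3 (lmFit, then eBayes with a trend on the mean level), 2-sided, and Benjamini-Hochberg adjustment took in all 21237 probe sets, unfiltered. Each FFPE minus FF fit used the 4 groups, of both cell types, at the inputs compared. No 2 arrays were identical. The steps were checked on simulated data with a uniform shift and added changes. These data did not have the narrower range of the FFPE arrays, so the check does not cover calls under that narrowing. Named probe sets were the 2 largest rises and the 2 largest falls on centred values among those called alike on centred, deposited and quantile-normalized values with no overlap of arrays. Same-numbered FFPE and FF arrays deviated together with correlations of 0.21, 0.05 and 0.10. Replicate 2 is under the required 0.1, so the main test did not use the numbers to pair the arrays. Differently numbered arrays were not compared in this way, so whether the numbers mark pairs is not settled. Alternatives were other scalings, filters, call rules and sets of arrays. The arrays, gene lists and tests were chosen with earlier results of these data known. The gene lists need symbols, which matched 0 identifiers, and were not tested.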

Additional observations from a re-analysis of the deposited data

Results flagged for a closer look

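The FFPE minus FF change at 2 ng differed between BC57 and urothelium at 1530 probe sets by the limma interaction test on centred values, and at 738 after quantile normalization. For ENSMUSG00000031802 the change was larger in BC57 by 1.74 (log2), with 3.88 in BC57 and 2.14 in urothelium, on centred values. After quantile normalization the changes were 4.16 in BC57 and 3.36 in urothelium, a difference of 0.81 that was not called. The probe set was chosen as the largest rise on the same BC57 arrays, which favours a larger change there. All groups at 2 ng have 3 arrays, too few for a test of single outlying arrays.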

How the results depend on the processing

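Counts of called probe sets depended on scaling and call rule. Quantile normalization called 893 probe sets for BC57 at 2 ng, 1383 at 0.5 ng and 738 for the difference between cell types, and cyclic loess 1164 at 2 ng and 1758 at 0.5 ng. Testing for a change beyond 2-fold (limma's treat) called 898 at 2 ng, 1471 at 0.5 ng and 213 at FFPE 50 ng against FF 100 ng. It called 408 for the difference between cell types. The set with the same call in 3 scalings, formed anew under each call rule, then held 112. With adjusted p alone these counts were 12145, 13496, 8447, 8103 and 4901, in the same order. Leaving out each array in turn gave 2220 to 2754 calls at 2 ng, 3519 to 4177 at 0.5 ng, 1039 to 1167 at 50 against 100 ng, 1464 to 1757 for the difference between cell types and 573 to 664 for the set of 634. With the replicate block, 2455 were called at 2 ng, against 2456 without it, and the set held 637. In BC57 at 2 ng the 4 named probe sets were called under all 22 alternatives. They were chosen as the largest changes already called on deposited and quantile-normalized values, so those 2 alternatives could not fail. Nor could the rule of adjusted p alone, which drops a size condition that they had met. Several others, such as leaving out a urothelium array, altered the p-value and not the change. Changes ran from 3.63 to 4.65 for ENSMUSG00000031802 and from 3.18 to 3.94 for ENSMUSG00000064343. For the falls they ran from -5.09 to -4.09 for ENSMUSG00000022193 and from -4.89 to -3.84 for ENSMUSG00000003429. The larger change of ENSMUSG00000031802 in BC57 than in urothelium was 1.74 on centred, 1.64 on deposited and 1.40 on loess-normalized values, and 0.81, not called, after quantile normalization. Detection calls were not used, so dim values may lie at background.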
